A study of Homo sapiens with 12 samples.

Results

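Cytosolic ribosomal protein genes encode the proteins that, with ribosomal RNA, build the small (40S) and large (60S) subunits of the ribosome. Ribosomes need these proteins in matched amounts, and the mRNAs are among the most abundant in growing cells. Most of these mRNAs begin with a terminal oligopyrimidine (TOP) stretch, a C followed by a run of C or T, through which the mTOR pathway and the RNA-binding protein LARP1 control their translation and stability. The genes were chosen by symbol: protein-coding genes named RPL or RPS with a number (with or without a final A, or X for RPS), the stalk genes RPLP0 to RPLP2, and RPSA. Of the 61860 genes in each count table, 77 met this rule, 46 of the 60S and 31 of the 40S subunit, and all 77 passed the expression filter in both experiments.

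RNA was sequenced from 22Rv1, a human prostate cancer line grown in RPMI-1640 with serum, in a study of phosphorylated RB, the transcription factor ETS1 and CDK4/6 inhibitors. The 12 libraries form 4 groups of 3: cells given siRNA against ETS1, the controls of that experiment, cells given siRNA against the zinc finger gene ZNF783, and separate controls of that second experiment. All groups share the same line, with no other allele or agent in the labels. No label gives the siRNA sequences, the treatment of the controls or the time of harvest. The labels do not say if replicates came from separate cultures, so every p-value here rests on library-to-library spread that could be technical alone.

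Total counts ran from 13518177 to 48996691 per library. ETS1 had 0, 3 and 0 counts with ETS1 siRNA and 0, 1 and 0 in its controls, all at or under the floor of 3 counts. The ZNF783 libraries had 0 or 1 count each. The ETS1 transcript was thus close to absent in all 12 libraries, controls included. No fold is given for this targeted gene, and its knockdown could not be seen in the counts. ZNF783 stood at 28.7, 27.4 and 28.0 CPM (counts scaled to the library's TMM-adjusted total) with ZNF783 siRNA, against 33.8, 34.9 and 35.7 CPM in its controls. Its log2 fold change was -0.31 (SE 0.055, edgeR quasi-likelihood test with Benjamini-Hochberg adjustment, adjusted p = 2.46e-05). In a fit of all 12 libraries together it was -0.32 and not called (edgeR adjusted p = 0.145). ZNF783 was also lower in the other experiment, at 12.5, 18.7 and 18.5 CPM with ETS1 siRNA. The ETS1 controls had 21.0, 21.6 and 22.3 CPM (log2 fold change -0.38, edgeR adjusted p = 0.258, not called). The luminal prostate marker HOXB13 and the epithelial genes KRT8, KRT18 and EPCAM were present at 1 CPM or more in every group. The 10 markers of leukocytes, endothelium and fibroblasts summed to 15.2 to 17.0 CPM with ETS1 siRNA, 15.9 to 18.0 CPM in ETS1 controls, 24.1 to 25.6 CPM with ZNF783 siRNA and 27.8 to 30.1 CPM in ZNF783 controls. Most of that sum was COL1A1, and CD3E was at 0 in all 12 libraries. ETS1 siRNA replicate 1 stood apart: a chi-square test over genes gave 35.6 and 34.3 per degree of freedom between it and the other 2 replicates, where all other replicate pairs gave 1.32 to 2.70. Over the 77 genes alone its values were 427 and 388. The other pairs were also further apart over these genes, at 5.42 to 50.7, the highest being ETS1 control replicates 1 and 3. Results with ETS1 siRNA are therefore given with and without ETS1 siRNA replicate 1.

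Promoter windows from RefSeq (GRCh38.p14), running from 250 bases before to 50 bases after the annotated start, were found by symbol for 62 of the 77 genes. A TOP-type start, here a C at the start followed by at least 4 bases that are C or T, was present in 42 of the 62 (67.7%), against 4.07% of all 35116 windows. The letters CCGGAAG, used here as the ETS core and searched on both strands, stood in 21 of the 62 (33.9%), against 10.3% of all windows. Only this exact match of 7 letters was searched, so a window without it can still hold its inner letters GGAA. The SP1 box GGGCGG was in 54.8% against 45.0%, and the TATA box letters TATAAA in 8.06% against 11.5%, also on both strands. These matches are descriptions of letters and do not show a bound site. The 6 windows printed here, from 75 bases before the start to 15 from it, show the range: the first 4 belong to genes with some of the lowest values with ETS1 siRNA, and RPL13A and RPL4 passed the test of the difference between the siRNAs. Capitals mark the ETS core, in either orientation, and the TOP-type run at the start.
RPLP1: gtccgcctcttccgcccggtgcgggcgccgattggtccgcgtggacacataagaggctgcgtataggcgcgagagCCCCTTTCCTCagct
RPLP0: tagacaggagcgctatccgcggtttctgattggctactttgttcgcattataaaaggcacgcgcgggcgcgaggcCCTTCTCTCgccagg
RPS14: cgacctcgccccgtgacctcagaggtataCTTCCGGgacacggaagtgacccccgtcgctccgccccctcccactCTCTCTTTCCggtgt
RPS21: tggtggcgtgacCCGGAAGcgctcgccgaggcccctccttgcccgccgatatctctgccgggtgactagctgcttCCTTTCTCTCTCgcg
RPL13A: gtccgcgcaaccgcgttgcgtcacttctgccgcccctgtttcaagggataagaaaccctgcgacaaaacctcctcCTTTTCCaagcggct
RPL4: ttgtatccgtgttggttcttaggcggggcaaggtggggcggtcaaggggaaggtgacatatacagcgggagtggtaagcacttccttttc
The windows lie at chr15:69452743-69452832 (plus strand) for RPLP1, chr12:120201097-120201186 (minus) for RPLP0, chr5:150449725-150449814 (minus) for RPS14, chr20:62387028-62387117 (plus) for RPS21, chr19:49487533-49487622 (plus) for RPL13A and chr15:66504841-66504930 (minus) for RPL4. In RPS14 and RPS21 the letters CCGGAAG lie upstream of a TOP-type start. RPLP1 and RPLP0 have the TOP-type start and no CCGGAAG in the whole window, and RPL13A has CCGGAAG further upstream, at position -177. RPL4 has no CCGGAAG in its window and no TOP-type start at its annotated base. The printed letters of RPLP1 and RPL4 do hold the shorter GGAA, read on either strand.

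The genes differed widely in level. Over the 6 control libraries the median was 463 CPM. Most of the genes, 61, lay between 100 and 1000 CPM, 8 above 1000 CPM, 3 between 10 and 100 CPM and 5 under 10 CPM. Per kb of counted exon, RPL41, RPS12 and RPS2 were the highest, in an order that differed between the control groups. RPL41, the smallest 60S protein, averaged 850 ± 50.7 CPM per kb in ETS1 controls and 511 ± 34.1 CPM per kb in ZNF783 controls (SD, n = 3 each). RPS12, a 40S protein, averaged 769 ± 19.6 CPM per kb in ETS1 controls and 679 ± 21.9 CPM per kb in ZNF783 controls. RPS2, at the mRNA entry channel, averaged 772 ± 20.3 CPM per kb in ETS1 controls and 646.5 ± 34.8 CPM per kb in ZNF783 controls, so RPS12 and RPS2 did not differ beyond their spread in either group. In the mean over the 6 controls RPL8 had 558 CPM per kb, RPL13A 507 and RPL7A 496. Among the lowest were RPS18 (0.85 CPM per kb), RPS9 (0.933), RPS10 (1.05), RPL36A (1.44) and RPL26 (7.35). The order depends on the length used: per kb of the shortest coding transcript RPS2, RPL41 and RPLP0 were highest, in that order, and RPS12 was at rank 22. The counting header names no option for reads that map to several places or overlap several genes, 914 of 1586 annotated ribosomal protein pseudogenes had counts, and readthrough genes overlap RPS10, RPL17 and RPL36A. The part of these features in the low counts was not tested. Exons of 29 of the genes overlap another gene on the opposite strand, and counting used no strand option, so reads of such pairs cannot be told apart. Among the genes described, RPL4 (with ZWILCH), RPL22 (RNF207), RPL10 (DNASE1L1), RPS23 (ATG10), RPLP2 (PIDD1), RPL15 (NKIRAS1), RPL5, RPL17, RPL37A, RPS3A, RPS6, RPS9, RPS18, RPS27A, RPS28 and RPS29 are in such pairs. RPL4 lies at chr15:66498015-66524532 (minus strand), RPL13A at chr19:49487554-49492308 (plus), RPL14 at chr3:40457292-40468587 (plus), RPLP0 at chr12:120196686-120201235 (minus) and RPLP1 at chr15:69452784-69456194 (plus), in GENCODE coordinates of GRCh38. RPL4 and RPL13A carry small nucleolar RNA genes within their bounds.

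**Figure D1:**
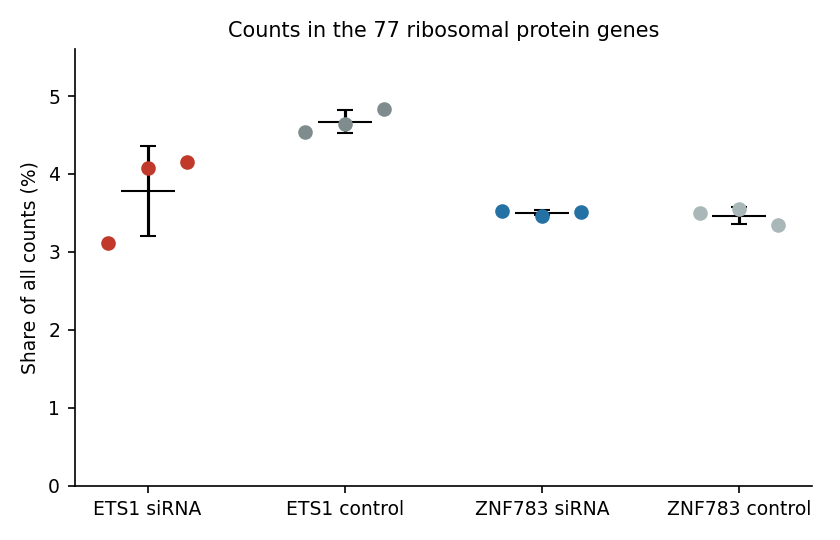
Share of all counts (%) in the 77 ribosomal protein genes, with 1 point per library, replicates 1 to 3 from left to right within a group, and bars for mean ± SD. The ETS1 siRNA libraries lie at 3.11 to 4.15%, below the ETS1 controls at 4.54 to 4.84%, while the ZNF783 siRNA libraries (3.46 to 3.53%) lie within the range of their controls (3.34 to 3.55%).

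With ETS1 siRNA, 76 of the 77 genes had a negative log2 fold change (48.7% of all genes), and no single gene was called. Against the mean of their own controls, 75, 75 and 74 of the 77 were lower in ETS1 siRNA replicates 1 to 3. In single ETS1 controls 66, 56 and 13 were lower, and in single ZNF783 controls 21, 16 and 72. The genes thus shift together within a library, controls included, and the 76 are not 76 separate results. The share of all counts in the 77 genes was 3.11, 4.08 and 4.15% with ETS1 siRNA (3.78 ± 0.578, SD, n = 3), against 4.54, 4.63 and 4.84% in ETS1 controls (4.67 ± 0.151, n = 3). The groups did not overlap, and ETS1 siRNA replicate 1 was the lowest. The median log2 fold change of the 77 was -0.33, against 0.0066 over all 19542 genes tested. For 66 of the 77, all 3 ETS1 siRNA libraries lay below all 3 controls, against 17.8% of all genes tested, and for 0 of the 77 did they lie above (17.5% of all genes). Replicates 2 and 3 alone lay below all controls for 69 of the 77 (23.8% of all genes). In bulk RNA, fewer cells of a kind and less RNA per cell cannot be told apart, and CPM are shares of a library, not amounts per cell.

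edgeR over all 6 libraries called 0 of the 77 genes at an adjusted p below 0.05, where it called 0.0205% of all genes as lower and 0.0256% as higher. The smallest adjusted p among the 77 was 0.108, and 42 of them, all with negative values, had an unadjusted p under 0.05 (8.31% of all genes in that direction, 9.78% in the other). On the same libraries DESeq2's Wald test called 11 as lower and 0 as higher (1.92% and 1.83% of all genes), and limma-voom with quality weights, which gave ETS1 siRNA replicate 1 a weight of 0.0931, called 45 as lower and 0 as higher (10.1% and 9.7% of all genes). Without ETS1 siRNA replicate 1 edgeR called 49 as lower and 0 as higher, against 13.0% of all genes as lower and 9.96% as higher, and the median of the 77 was -0.22. With each gene corrected for GC content and length as well, 44 were called as lower and 0 as higher, against 10.2% and 9.35% of all genes. These fits leave out the library furthest apart and compare only ETS1 siRNA replicates 2 and 3 with the controls. The common estimate of spread between replicates in edgeR was 0.107 over all libraries and 0.0262 without replicate 1. The small adjusted p-values without replicate 1, here and below, rest on how close replicates 2 and 3 were. Leaving out any other library of this experiment gave 0 calls among the 77.

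**Figure D2:**
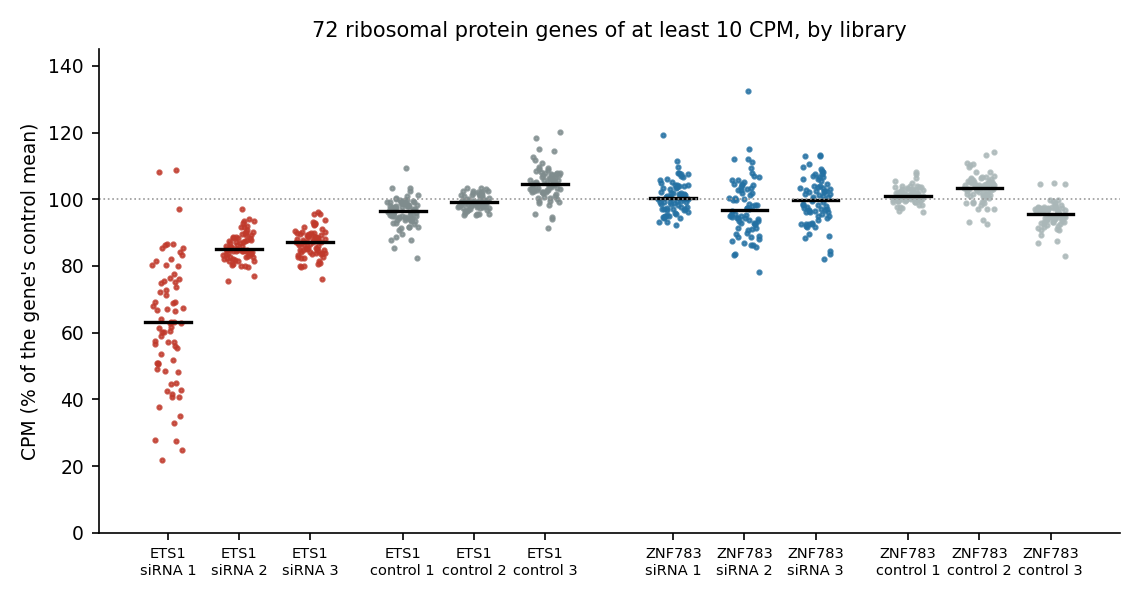
CPM of each of the 72 ribosomal protein genes of at least 10 CPM, as a percentage of that gene's mean in the controls of its own experiment, for every library (points, genes; black lines, medians). ETS1 siRNA replicate 1 is lower and far wider than replicates 2 and 3, which form narrow bands with medians below those of the controls, and the ZNF783 siRNA libraries lie around 100%.

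The 60S and 40S genes had similar medians with ETS1 siRNA, -0.34 over 46 genes and -0.31 over 31. Without ETS1 siRNA replicate 1, 29 of the 46 and 20 of the 31 were called as lower (13.0% of all genes). The stalk of the large subunit, which recruits elongation factors, held 2 of the lowest values. RPLP1 measured 109, 404 and 401 CPM with ETS1 siRNA, against 466, 493 and 547 CPM in ETS1 controls. Its log2 fold change was -0.72 (SE 0.431, adjusted p = 0.386), or -0.32 without replicate 1 (adjusted p = 0.0791). RPLP0, the base of the stalk, measured 987, 1518 and 1604 CPM with ETS1 siRNA, against 1964, 1955 and 2104 CPM in ETS1 controls. Its value was -0.55 (SE 0.168, adjusted p = 0.194), and it was called without replicate 1 (-0.37, adjusted p = 6.72e-11). In both genes replicate 1 was far below replicates 2 and 3, and those 2 were also below every control. RPLP2, the other small stalk protein, gave -0.42 on the log2 scale (adjusted p = 0.2), or -0.29 without replicate 1 (adjusted p = 0.111).

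RPL5 and RPL11, which bind 5S rRNA and can hold the p53 regulator MDM2 when ribosome assembly is disturbed, had the same value of -0.29. RPL5 measured 575, 758 and 766 CPM with ETS1 siRNA, against 835, 872 and 862 CPM in ETS1 controls, and was called without replicate 1 (-0.17, adjusted p = 1.03e-06). RPL11 measured 433, 462 and 475 CPM with ETS1 siRNA, against 511, 565 and 598 CPM in ETS1 controls, and did not pass without replicate 1 (-0.26, adjusted p = 0.117). The controls of RPL11 were more spread than those of RPL5. RPL10, which joins the 60S subunit late and lies near the peptidyl transferase centre, measured 247, 602 and 631 CPM with ETS1 siRNA, against 739, 733 and 785 CPM in ETS1 controls. Its log2 fold change was -0.61 (SE 0.312, adjusted p = 0.334), or -0.29 without replicate 1 (adjusted p = 6.04e-11).

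The 2 genes with the smallest p with ETS1 siRNA were among those least affected by replicate 1. RPL23, on the subunit interface, measured 446, 478 and 505 CPM with ETS1 siRNA, against 577, 594 and 615 CPM in ETS1 controls. RPS23, near the decoding centre, measured 208, 218 and 228 CPM with ETS1 siRNA, against 272, 259 and 286 CPM in ETS1 controls. Both had a log2 fold change of -0.32 (SE 0.0615 and 0.0608, adjusted p = 0.108 each, edgeR). Without replicate 1 their values were -0.29 (adjusted p = 4.49e-11) and -0.30 (adjusted p = 2.12e-08). In the peptide exit tunnel and its rim all 8 genes had negative values, with a median of -0.24. RPL39, one of them, had -0.48 (adjusted p = 0.334) and RPL4 -0.14 (adjusted p = 0.219). RPL41 measured 511, 736 and 748 CPM with ETS1 siRNA, against 873, 919 and 983 CPM in ETS1 controls (-0.48, adjusted p = 0.19). It was called without replicate 1 (-0.33, adjusted p = 3.27e-05).

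Among 40S genes RPS29, RPS21, RPS14, RPS19 and RPS12 had the lowest values, -0.69, -0.64, -0.62, -0.58 and -0.58 (adjusted p = 0.376, 0.375, 0.304, 0.302 and 0.419). RPS12 measured 165, 502 and 519.6 CPM with ETS1 siRNA, against 577, 585 and 606 CPM in ETS1 controls. RPS19, the gene most often mutated in the inherited marrow failure Diamond-Blackfan anaemia, measured 231, 507 and 489 CPM with ETS1 siRNA, against 589, 606 and 642 CPM in ETS1 controls. Both were called without replicate 1 (RPS12 -0.21, adjusted p = 2.1e-08, and RPS19 -0.31, adjusted p = 1.27e-10). RPS14, RPS21 and RPS29 were not (adjusted p = 0.103, 0.291 and 0.388), and RPS29 had overlapping groups, at 38.4, 119 and 129.9 CPM with ETS1 siRNA and 128, 151 and 186 CPM in ETS1 controls. Of the 18 genes mutated in Diamond-Blackfan anaemia on the list, 17 had negative values, with a median of -0.29, and 7 were called as lower without replicate 1 (13.0% of all genes). RPS3, at the mRNA entry channel, had -0.49 (adjusted p = 0.351), RPSA, at the mRNA exit, -0.29 (adjusted p = 0.314), RPS27A, made as a fusion with ubiquitin, -0.45 (adjusted p = 0.391), RPS4X -0.24 (adjusted p = 0.158) and RPS6, the substrate of S6 kinases, -0.17 (adjusted p = 0.235). All 5 were called as lower without replicate 1 (adjusted p = 2.03e-08, 8.94e-05, 1.84e-05, 4.88e-06 and 0.000347).

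A few genes went another way in replicate 1. RPL28, a 60S protein, measured 480.0, 374 and 379 CPM with ETS1 siRNA, against 421, 433 and 468 CPM in ETS1 controls. RPS26, at the mRNA exit, measured 339, 269 and 264 CPM with ETS1 siRNA, against 298, 302 and 341 CPM in ETS1 controls. RPS24 measured 751, 690.2 and 703 CPM with ETS1 siRNA, against 748, 797 and 773 CPM in ETS1 controls. In each of the 3, replicate 1 was the highest ETS1 siRNA library and lay within or above the controls, while replicates 2 and 3 lay below them. Their log2 fold changes were -0.10, -0.11 and -0.11 over all libraries (adjusted p = 0.586, 0.576 and 0.319). Without replicate 1 they were -0.24, -0.24 and -0.16, with RPL28 and RPS24 called (adjusted p = 6.09e-06 and 1.6e-05) and RPS26 not (adjusted p = 0.0546). RPL15, another 60S gene, had -0.15 (adjusted p = 0.316). Also among the 8 highest, RPL36A (-0.05) and RPS9 (-0.10) were under 10 CPM and had overlapping groups. Over all 77 genes the median log2 ratio to the control mean was -0.66 in replicate 1 and -0.23 and -0.20 in replicates 2 and 3. Over the 72 genes of at least 10 CPM the interquartile ranges were 0.576, 0.0902 and 0.0869 in the same order.

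**Figure D3:**
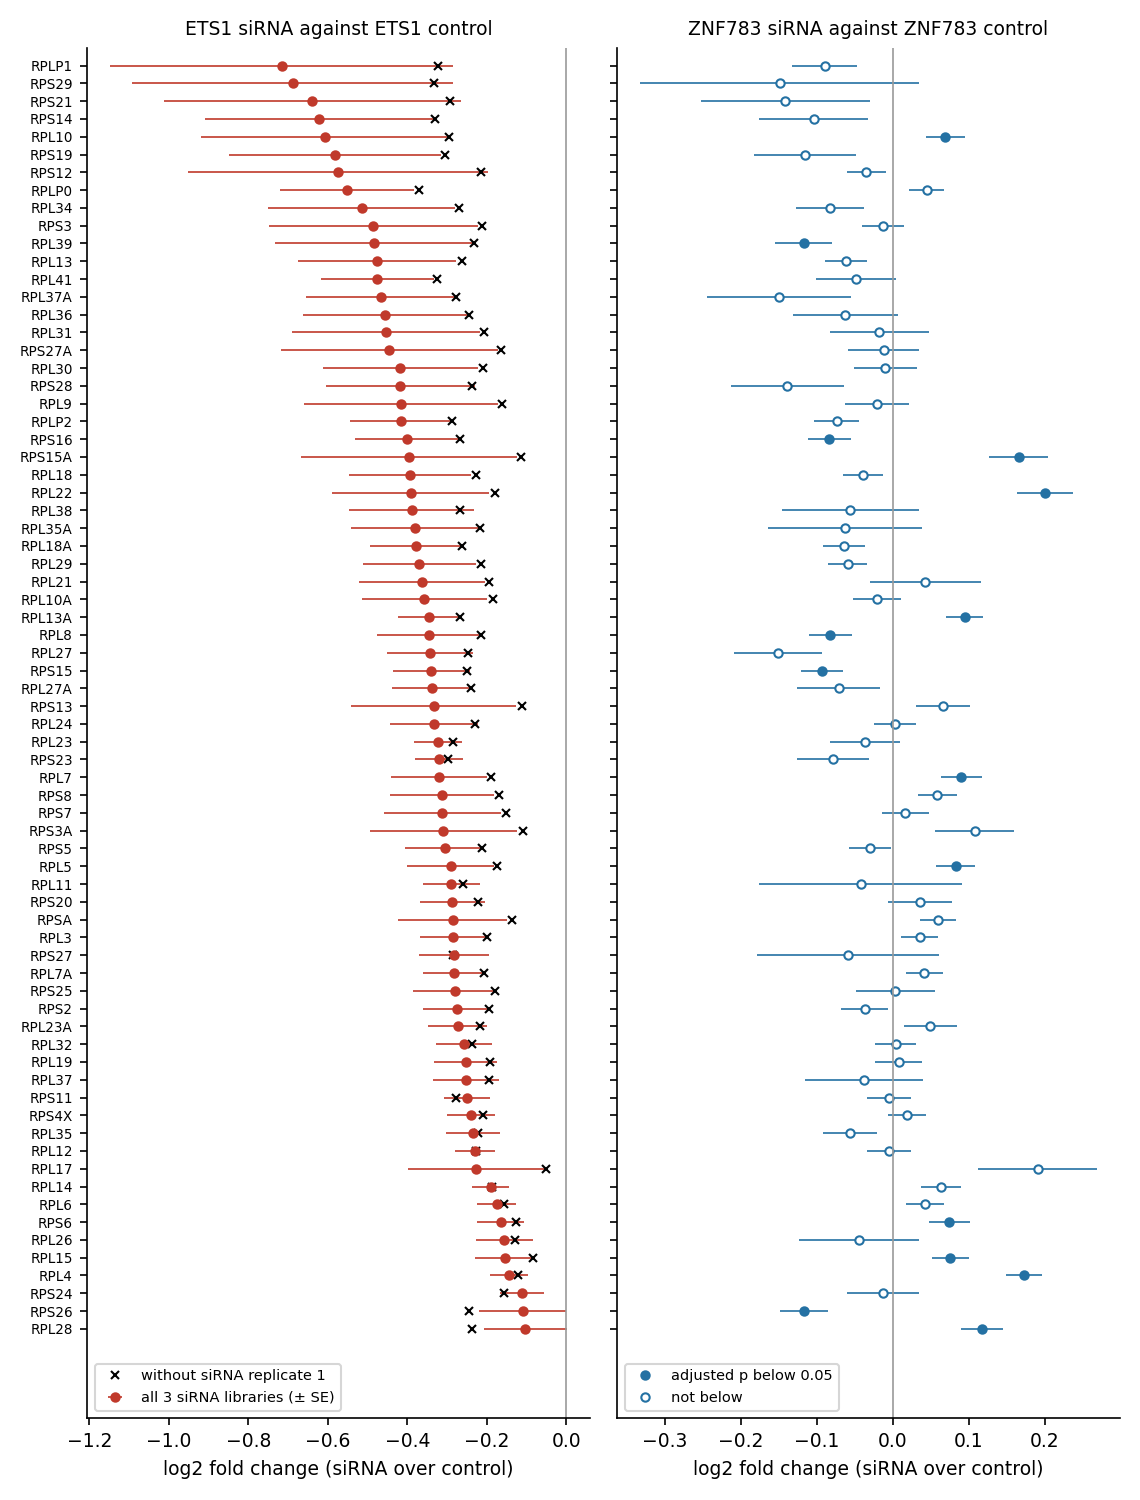
Log2 fold changes of the 72 genes of at least 10 CPM, ordered by their value with ETS1 siRNA, with bars for the SE of the fit over 6 libraries; crosses in the left panel show the fit without ETS1 siRNA replicate 1, and filled points in the right panel passed an adjusted p of 0.05 with ZNF783 siRNA. The points of the left panel are all negative and its crosses lie between about -0.05 and -0.37, while the points of the right panel, on a narrower scale, lie on both sides of 0.

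With ZNF783 siRNA the genes did not move as a body. Their share of all counts was 3.53, 3.46 and 3.52% with ZNF783 siRNA (3.50 ± 0.0332, SD, n = 3), against 3.50, 3.55 and 3.34% in ZNF783 controls (3.46 ± 0.11, n = 3), and the groups overlapped. Of the 77 genes 10 were called as higher and 5 as lower, against 11.3% and 13.8% of the 17630 genes tested. The share called as higher was near that of all genes and the share called as lower was below it, and no test was run on these shares. The median log2 fold change was -0.02, against 0.0017 over all genes. The ZNF783 siRNA libraries were wholly above their controls for 9 of the 77 genes (18.3% of all genes) and wholly below for 4 (19.8%). At an unadjusted p under 0.05 there were 24, of them 10 lower, against 18.8% of all genes as lower and 16.5% as higher.

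RPL4, whose loop lines the exit tunnel, rose to 1538, 1612 and 1588 CPM with ZNF783 siRNA, against 1416, 1403 and 1385 CPM in ZNF783 controls. The log2 fold change was 0.17 (SE 0.0233, edgeR adjusted p = 1.8e-07), and it passed under every alternative run, with values of 0.14 to 0.20. RPL22, an RNA-binding 60S protein, rose to 136, 128 and 129 CPM with ZNF783 siRNA, against 117, 106 and 119.8 CPM in ZNF783 controls (0.20, SE 0.0368, adjusted p = 7.15e-05). RPS15A, RPL28 and RPL13A rose by log2 fold changes of 0.17, 0.12 and 0.09 (adjusted p = 0.00108, 0.00109 and 0.00301). In these 5 genes every ZNF783 siRNA library lay above every control, and the calls held with each library left out in turn. RPL22, RPS15A, RPL28 and RPL13A lost their calls only in a fit of all 12 libraries together (adjusted p = 0.611, 0.785, 0.568 and 0.522), among the alternatives run.

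The other 5 that rose were RPL5 (0.08), RPL7 (0.09), RPL15 (0.08), RPS6 (0.07) and RPL10 (0.07), with adjusted p = 0.0122, 0.0116, 0.0174, 0.0395 and 0.0441. Each lost its call with at least 1 library left out, at adjusted p of up to 0.0553, 0.106, 0.0922, 0.173 and 0.251. Corrected for GC content and length, RPL5, RPL7 and RPS6 were at 0.03, 0.05 and 0.05 and not called (adjusted p = 0.317, 0.159 and 0.241), by DESeq2 RPL10 and RPS6 were not called (adjusted p = 0.0643 and 0.0665), and in the fit of all 12 libraries none of the 5 was. RPL5 stood at 612, 611 and 624 CPM with ZNF783 siRNA, against 600.0, 563 and 579.6 CPM in ZNF783 controls. The genes that fell were RPS26 (-0.12, adjusted p = 0.00558), RPS15 (-0.09, adjusted p = 0.00963), RPL39 (-0.12, adjusted p = 0.0245), RPS16 (-0.08, adjusted p = 0.0284) and RPL8 (-0.08, adjusted p = 0.0325). RPS26 stood at 243, 230.0 and 235 CPM with ZNF783 siRNA, against 248, 273 and 249 CPM in ZNF783 controls, and lost its call without ZNF783 control replicate 2 (adjusted p = 0.0827). None of the 5 kept its call with every library left out in turn, and with the GC and length correction RPS15 and RPL8 turned to 0.04 each (adjusted p = 0.186 and 0.145) and RPS16 was at -0.04 (adjusted p = 0.22). RPL13A, RPL7, RPL15, RPS15, RPS16 and RPL8 are named because they passed, after their values were seen.

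The counts of calls moved with single libraries. Without ZNF783 control replicate 3, the control with the lowest share of counts in these genes, 19 genes were called as lower and 7 as higher (13.0% and 10.3% of all genes). Without ZNF783 siRNA replicate 3, 1 was lower and 7 higher (10.7% and 9.22% of all genes). Without ZNF783 control replicate 2, 1 was lower and 13 higher (10.5% and 8.97%), and without ZNF783 control replicate 1, 2 were lower and 10 higher (10.7% and 9.38%). With the GC and length correction 12 were higher and 2 lower (8.66% and 10.6% of all genes), and the fit of all 12 libraries called 1, RPL4, as higher (1.52% of all genes as higher and 2.69% as lower). The stalk genes RPLP0, RPLP1 and RPLP2 did not pass with ZNF783 siRNA, at 0.04, -0.09 and -0.07 (adjusted p = 0.172, 0.165 and 0.0625). RPSA had 0.06, RPS19 -0.12, RPL11 -0.04 and RPL23 -0.04 (adjusted p = 0.0572, 0.308, 0.868 and 0.631). RPL41 had -0.05, RPS4X 0.02, and RPS3 and RPS27A -0.01 each (adjusted p = 0.586, 0.646, 0.793 and 0.89). RPS18 (-0.59) and RPS10 (0.27) were among the most extreme fold changes but were under 5 CPM and not called. Of the next in order, RPL27 and RPL37A had -0.15 each, RPS29 -0.15, RPS21 and RPS28 -0.14 each, RPL17 0.19 and RPS3A 0.11, none of them called.

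**Figure D4:**
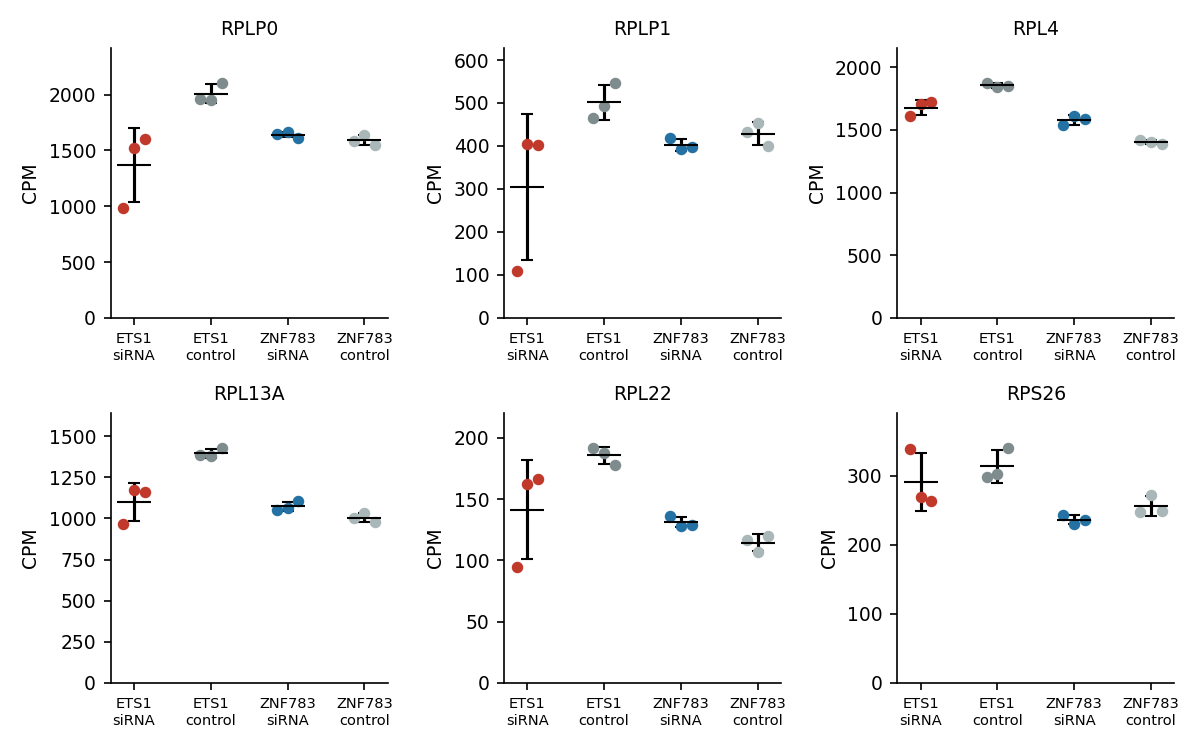
CPM of 6 ribosomal protein genes in every library (points), with the mean and SD of each group of 3 (bars). RPL4, RPL13A and RPL22 lie below their controls with ETS1 siRNA and above their controls with ZNF783 siRNA, RPLP0 and RPLP1 lie below with ETS1 siRNA with replicate 1 lowest, and RPS26 overlaps its controls with ETS1 siRNA and lies below them with ZNF783 siRNA.

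The effects of the 2 siRNAs, each against its own controls, were compared in a fit of all 12 libraries. The difference (ETS1 siRNA effect minus ZNF783 siRNA effect) was negative for 73 of the 77 genes, with a median of -0.31, against 0.0096 over all 19594 genes. It passed for 3 genes, all lower, against 0.577% of all genes as lower and 1.11% as higher. RPL4 had a difference of -0.30 (SE 0.0499, edgeR adjusted p = 0.00863), RPL13A of -0.43 (SE 0.0842, adjusted p = 0.0222) and RPL14 of -0.24 (SE 0.0541, adjusted p = 0.0434). RPL13A measured 968, 1171 and 1163 CPM with ETS1 siRNA, against 1386, 1378 and 1429 CPM in ETS1 controls. It stood at 1054, 1063 and 1104 CPM with ZNF783 siRNA, against 1006, 1031 and 979.6 CPM in ZNF783 controls. RPL4 passed with each library left out in turn, while RPL13A and RPL14 passed in 3 and 2 of 12. Without ETS1 siRNA replicate 1 the difference was called for 30 genes, all lower, against 7.41% of all genes as lower and 6.25% as higher. The lowest differences over all libraries were those of RPL10 (-0.66), RPLP1 (-0.61), RPLP0 (-0.58), RPL22 (-0.58) and RPS15A (-0.54), and among the highest were those of RPS18 (0.14), RPS26 (0.02), RPS9 (0.0071) and RPL36A (-0.0032), none called.

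In 8 genes, RPL4, RPL5, RPL10, RPL13A, RPL15, RPL22, RPS15A and RPSA, every ETS1 siRNA library lay below all ETS1 controls and every ZNF783 siRNA library above all ZNF783 controls. In 3 genes, RPL29, RPS15 and RPS19, the siRNA libraries lay below the controls in both experiments. With ETS1 siRNA 66 of the 77 lay wholly below (17.8% of all genes). With ZNF783 siRNA 9 lay wholly above and 4 wholly below (18.3% and 19.8%). With most genes below in the first experiment, most of the 9 and of the 4 fall in these groups. The share of all genes with either joint pattern was not computed, so the 8 and the 3 are not read as sets of their own. Across the 72 genes of at least 10 CPM the log2 fold changes with ETS1 siRNA, without its replicate 1, and those with ZNF783 siRNA had a Pearson r of 0.624 and a Spearman rho of 0.643. With all libraries r was 0.434 and rho 0.465, and with the GC and length correction 0.494 and 0.474. The experiments have separate controls, but the points share gene length, base composition and overlap with pseudogenes. Genes with longer coding transcripts had higher values in both experiments, with rho of 0.29 with ETS1 siRNA, 0.33 without replicate 1, and 0.44 with ZNF783 siRNA. The rho with GC content was -0.14, -0.38 and -0.24 in the same order. In the fits corrected for GC content and length, with no library left out, the rho with GC content was 0.417 with ETS1 siRNA and 0.388 with ZNF783 siRNA, and that with coding transcript length 0.108 and 0.32. Over all genes the log2 ratio of a library to its controls followed GC content too, with rho of -0.617, -0.554 and -0.526 for ETS1 siRNA replicates 1 to 3 and -0.512, -0.494 and -0.519 for those of ZNF783 siRNA. Among the control libraries rho ran from -0.526 to 0.482. The part of GC content and length in the order of the genes was not tested beyond this correction.

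**Figure D5:**
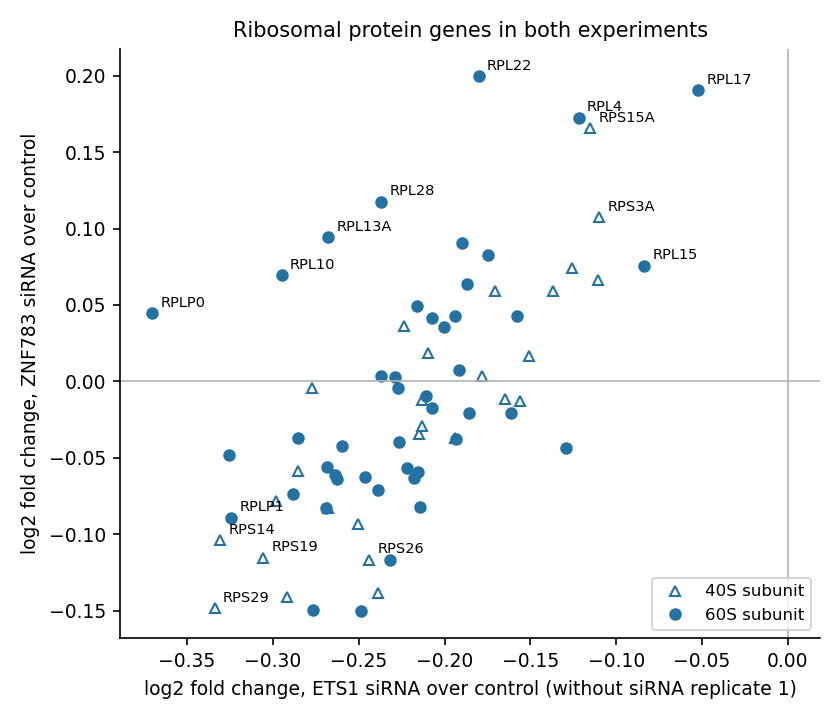
Log2 fold change with ETS1 siRNA, fitted without replicate 1 (x), against log2 fold change with ZNF783 siRNA (y), for the 72 genes of at least 10 CPM (filled circles, 60S; open triangles, 40S). All points lie left of 0 on x and on both sides of 0 on y, with RPS29 and RPS14 at the lower left and RPL4, RPS15A and RPL17 at the upper right.

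Median changes were close between genes with and without the promoter letters, and no test was run on them. The 21 genes with CCGGAAG in the window had a median log2 fold change of -0.34 with ETS1 siRNA, and the 41 without these letters had the same median to 2 decimals. Without replicate 1 these were -0.22 and -0.23, and with ZNF783 siRNA -0.02 and -0.03. The 42 genes with a TOP-type start had a median of -0.37 with ETS1 siRNA, and the 20 without one -0.30, or -0.23 and -0.20 without replicate 1. This start was read at the annotated base only, so genes whose run begins a few bases on, such as RPL4, count among the 20. Among the windows shown, RPS14 and RPS21 have CCGGAAG and RPLP1 and RPLP0 do not, and all 4 were among the 8 lowest. The shorter letters GGAA were not searched, so the 21 and the 41 do not compare genes with and without an ETS site.

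Other parts of the translation pathway were read from lists. Of the 17 tested of 18 translation factors and partners whose mRNAs are TOP mRNAs, 11 rose and 0 fell with ZNF783 siRNA, against 11.3% of all genes as higher, with a median of 0.13. EIF4B, a helicase cofactor of initiation, stood at 724, 721 and 729.5 CPM with ZNF783 siRNA, against 596, 578 and 588 CPM in ZNF783 controls (0.30, SE 0.0242, edgeR adjusted p = 2.67e-13). EEF1A1, which delivers aminoacyl-tRNA, stood at 7133, 7119 and 7198 CPM with ZNF783 siRNA, against 6400, 6441 and 6379 CPM in ZNF783 controls (0.16, adjusted p = 1.34e-07). NAP1L1 (0.16) and the poly(A)-binding protein gene PABPC1 (0.14) also rose (adjusted p = 1.07e-06 and 2.43e-05). In the fit of all 12 libraries EIF4B was called, and EEF1A1, NAP1L1 and PABPC1 were not (adjusted p = 0.464, 0.229 and 0.685). With ETS1 siRNA 10 of the 17 had negative values and 0 were called, with a median of -0.08. EEF1A1 measured 5578, 7798 and 7824 CPM with ETS1 siRNA, against 8705, 8802 and 8699 CPM in ETS1 controls (-0.31, adjusted p = 0.267). RACK1, a 40S-bound scaffold, had -0.30 (adjusted p = 0.166), EEF2, the translocase, -0.22 (adjusted p = 0.205), and NAP1L1 0.20 (adjusted p = 0.268). Without replicate 1, 9 of the 17 were called as lower and 1, NAP1L1, as higher (0.10, adjusted p = 0.00941), against 13.0% and 9.96% of all genes. NAP1L1 was at 0.0029 and not called once GC content and length were corrected too (adjusted p = 0.955).

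Of 11 host transcripts of small nucleolar RNAs, which also start with TOP sequences, all had negative values with ETS1 siRNA (median -0.31), 0 were called, and 7 were called as lower without replicate 1 (13.0% of all genes). GAS5, one of them, measured 184, 253 and 251 CPM with ETS1 siRNA, against 279, 289.6 and 291 CPM in ETS1 controls (-0.32, adjusted p = 0.244). SNHG6 had -0.21 (adjusted p = 0.2), SNHG1 -0.14 (adjusted p = 0.239) and SNHG16 -0.23 (adjusted p = 0.27). With ZNF783 siRNA 3 rose and 0 fell, against 11.3% and 13.8% of all genes: GAS5 (0.13, adjusted p = 0.00138), EPB41L4A-AS1 (0.22, adjusted p = 0.0308) and ZFAS1 (0.23, adjusted p = 0.0375). The last 2 are antisense transcripts, and overlap of their exons with other genes was not checked. Where exons do overlap, reads cannot be told apart without a strand option. By DESeq2 EPB41L4A-AS1 and ZFAS1 were not called (adjusted p = 0.136 and 0.154). Both also lost their calls in most edgeR fits with 1 library left out, at adjusted p of up to 0.234 and 0.272. In the fit of all 12 libraries none of the 3 was called (adjusted p = 0.564 for GAS5, 0.63 for EPB41L4A-AS1 and 0.476 for ZFAS1). SNHG1 did not pass with ZNF783 siRNA (0.09, adjusted p = 0.0818).

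Of 16 genes of the mTOR pathway and TOP mRNA regulation, 7 fell and 3, TSC1, LARP4 and RHEB, rose with ZNF783 siRNA, against 13.8% of all genes as lower and 11.3% as higher. Those that fell included RPTOR, the substrate-binding subunit of mTORC1 (-0.33, adjusted p = 1.45e-06), the translational repressor EIF4EBP1 (-0.25, adjusted p = 8.42e-06), AKT1S1, an inhibitor of mTORC1 (-0.21, adjusted p = 1.76e-05), and LARP1, which binds TOP mRNAs (-0.14, adjusted p = 1.8e-05). AKT1S1 was at -0.08 and not called after correction for GC content and length (adjusted p = 0.0569). LARP1 stood at 512, 502 and 507 CPM with ZNF783 siRNA, against 554, 567 and 558 CPM in ZNF783 controls. With ETS1 siRNA 0 of the 16 were called, the smallest p being that of EIF4EBP2, another repressor of the family, at 233, 215 and 211 CPM with ETS1 siRNA, against 284, 288 and 279.7 CPM in ETS1 controls (-0.37, adjusted p = 0.0859). MLST8 had -0.21 (adjusted p = 0.191), RPS6KB2 -0.28 (adjusted p = 0.234) and LARP4 0.16 (adjusted p = 0.259). Without replicate 1, 6 of the 16 were called as lower and 1 as higher (13.0% and 9.96% of all genes).

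Of 8 chaperones dedicated to single ribosomal proteins, 3 fell with ZNF783 siRNA, against 13.8% of all genes: GRWD1, which serves RPL3 (-0.22, adjusted p = 1.67e-05), RPS19BP1 (-0.18, adjusted p = 0.00133) and AAMP (-0.13, adjusted p = 0.00233). RPS19BP1 (-0.09, adjusted p = 0.0878) and AAMP (-0.03, adjusted p = 0.586) were not called after the correction for GC content and length, and GRWD1 was not in the fit of all 12 libraries (adjusted p = 0.169). TSR2, which serves RPS26, did not pass (-0.09, adjusted p = 0.116). With ETS1 siRNA 0 of the 8 passed (GRWD1 -0.26, AAMP -0.50, TSR2 -0.19, PDCD2 -0.08, adjusted p = 0.279, 0.311, 0.345 and 0.405), and 3 were called as lower without replicate 1 (13.0% of all genes). Of 8 tested ribosomal proteins and paralogues outside the symbol rule, RPL22L1, the paralogue of RPL22 (-0.17, adjusted p = 0.0124), FAU, the source of a 40S protein (-0.08, adjusted p = 0.0283), and RPL26L1 (-0.15, adjusted p = 0.0401) fell with ZNF783 siRNA, against 13.8% of all genes, and RPL36AL did not pass (-0.11, adjusted p = 0.0604). By DESeq2 FAU and RPL26L1 were not called (adjusted p = 0.088 and 0.163), and FAU was at -0.0058 after the correction for GC content and length (adjusted p = 0.91). FAU lost its call with each library left out in turn, and RPL26L1 with some of them, at edgeR adjusted p of up to 0.0903 and 0.224. RPL22L1 lost its call without ZNF783 control replicate 1 (-0.09, adjusted p = 0.124) and without ZNF783 siRNA replicate 1 or 2 (adjusted p = 0.0658 and 0.0635). RPL22L1 stood at 81.1, 81.5 and 83.0 CPM with ZNF783 siRNA, against 102, 87.6 and 87.0 CPM in ZNF783 controls, in the experiment in which RPL22 rose. With ETS1 siRNA RPL7L1 had -0.15 (adjusted p = 0.243), RPL36AL -0.16 (adjusted p = 0.267) and RPL3L, under 1 CPM, 0.52 (adjusted p = 0.309), and 5 of the 9 tested were called as lower without replicate 1 and 1 as higher (13.0% and 9.96% of all genes).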

How the data were processed

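RNA of 12 libraries was read from 2 tables of raw counts, one for each knockdown, as the authors deposited them. Per the file headers, featureCounts 2.0.1 assigned read pairs to exons of a GRCh38 annotation (release 107), without a strand option; the submitters' processing notes name hg38, and no aligner version was found in the labels or headers. Symbols were matched by identifier for 61757 genes (99.8%). The genes, the lists and the rule for named genes were chosen with earlier results of these data known. The rule names 15 genes of differing roles, the 8 highest and 8 lowest fold changes of each comparison (5 and 5 for the difference), genes called, the 6 highest and lowest levels, and up to 4 genes of smallest p from each list; some of these are not reported here.

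Each siRNA was compared with its controls by the quasi-likelihood F test of edgeR 4.0.16 (R 4.3.3; default expression filter, TMM scaling, robust fit, no covariate). P-values were adjusted over all genes tested and calls made at an adjusted p below 0.05. The difference used all 12 libraries. CPM are TMM-scaled, and the floor of 3 counts equals 0.0612 to 0.222 CPM; it covers counting error only, since amplified reads are not independent molecules. No replicate pair agreed within sampling noise, so none was merged. Alternatives used DESeq2 1.42.0, limma 3.58.1 and a correction for GC content and length (mgcv 1.9.3); that correction without ETS1 siRNA replicate 1 was added after seeing the data. The steps were tested on simulated data with known changes of 1.25, 1.5 and 2-fold. With the spread of the ETS1 experiment they recovered 5 of 67, 39 of 67 and 62 of 66 changed genes, and called 13 unchanged genes. With that of the ZNF783 experiment they recovered 59 of 67, 67 of 67 and 66 of 66, and called 21 unchanged genes. The 0 calls with ETS1 siRNA therefore do not show that small changes were absent. Coordinates come from GENCODE release 29, promoter letters from RefSeq.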

Additional observations from a re-analysis of the deposited data

Results flagged for a closer look

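The effects of the 2 siRNAs differed by a test of the difference itself for 3 ribosomal protein genes. RPL13A had a difference of -0.43 (ETS1 siRNA effect minus ZNF783 siRNA effect, edgeR adjusted p = 0.0222), with log2 fold changes of -0.34 with ETS1 siRNA and 0.09 with ZNF783 siRNA. RPL4 had a difference of -0.30 (adjusted p = 0.00863), with log2 fold changes of -0.14 and 0.17 in the same order. RPL14 had a difference of -0.24 (adjusted p = 0.0434), with -0.19 and 0.06. In RPL13A and RPL4 every ETS1 siRNA library lay below its controls and every ZNF783 siRNA library above its controls, while RPL14 was wholly below with ETS1 siRNA and overlapped with ZNF783 siRNA. RPL4 passed with each library left out in turn, and RPL13A and RPL14 in 3 and 2 of 12. With the replicate number as a block none of the 3 passed (edgeR adjusted p = 0.0823 for RPL4, 0.0734 for RPL13A and 0.149 for RPL14).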

How the results depend on the processing

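The medians with ETS1 siRNA and for the difference kept their sign under every alternative run. Calls with ETS1 siRNA, 0 over all libraries, were, all as lower, 3 without an expression filter (0.298% of all genes as lower), 11 by DESeq2 (1.92%), 30 in the fit of all 12 libraries (4.59%), 45 by limma-voom with quality weights (10.1%), and 44 with the GC and length correction without ETS1 siRNA replicate 1 (10.2%); leaving out each library in turn gave 0 to 49, the 49 being without that replicate (13.0%). Calls with ZNF783 siRNA, 15 in all, were 1 in the fit of all 12 libraries (1.52% of all genes as higher), 7 at an adjusted p below 0.01 (9.36% as lower and 7.26% as higher) and 8 to 26 with each library left out (10.4 to 13.0% and 8.97 to 10.3%); the median became 0.02 (0.0157) with the GC and length correction and ran from -0.0551 to 0.011 with each library left out. Calls for the difference, 3 in all, were, all as lower, 57 without a filter (1.17% of all genes as lower), 12 by DESeq2 (1.44%), 22 by limma-voom with quality weights (5.64%), 6 with the correction (1.61%), 1 at an adjusted p below 0.01 (0.194%), and 1 to 30 with each library left out (0.249 to 7.41%). Deviations of same-numbered siRNA and control libraries had correlations of -0.242 to 0.316, and those of differing numbers -0.331 to 0.319. With 3 libraries in a group these values cannot settle if the numbers pair the libraries. With the number as a replicate block, 0 genes were called with ETS1 siRNA. With ZNF783 siRNA 20 were called (14.1% of all genes as lower, 11.3% as higher), and 0 for the difference (0.097% and 0.179%). The causes were not tested.

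Single genes changed sign, among them RPS15 and RPL8, which were called as lower with ZNF783 siRNA, and MLST8, LARP4 and NAP1L1, at -0.21, 0.16 and 0.20 with ETS1 siRNA and not called. With the GC and length correction RPL28, RPS9, MLST8, LARP4 and NAP1L1 stood at 0.0159, 0.0286, 0.0264, -0.0174 and -0.00391 with ETS1 siRNA (RPS9 0.248 also without replicate 1, and 0.0808 by limma-voom with quality weights), and RPL8, RPLP2 and RPS15 at 0.044, 0.0228 and 0.0428 with ZNF783 siRNA. For the difference, RPL36A stood at 0.00373 by limma-voom and 0.000981 with the block, RPS18 at -0.146 by limma-voom, RPS26 at -0.00059 without a filter, -0.00377 by limma-voom and -0.105 with quality weights, and RPS9 at -0.00122 with DESeq2 size factors, -0.00799 without a filter, -0.0637 by DESeq2, -0.0947 by limma-voom and -0.118 with the block. With each library left out, RPL36A ran from -0.116 to 0.0168 and RPS9 from -0.483 to 0.157 with ETS1 siRNA. With ZNF783 siRNA RPL11 ran from -0.131 to 0.0585, RPL23 from -0.0905 to 0.00373, RPS27A from -0.0546 to 0.0266, RPS3 from -0.048 to 0.0179 and RPS4X from -0.00215 to 0.0451. For the difference RPL36A ran from -0.0946 to 0.0694, RPS18 from -0.262 to 0.53, RPS26 from -0.128 to 0.0881 and RPS9 from -0.358 to 0.262. Low counts limit RPS9, RPS10, RPS18 and RPL36A, all under 10 CPM, and the cause of these low counts was not tested.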
